A study of Mus musculus with 6 samples.

Results

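The RNA of 10 genes that mark GABAergic interneurons and Purkinje cells was followed in cultures made to hold granule neurons. The genes were Gad1, Gad2, Slc32a1, Slc6a5, Calb1, Pvalb, Pcp2, Car8, Itpr1 and Ppp1r17. They were chosen by name as markers of inhibitory cerebellar cells, and all 10 were found once each among the 55341 genes of the count tables. With enough counts for a test were 9 of them, among 16729 such genes. Ppp1r17 was the exception.

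Cerebellar granule neurons (CGNs) were grown from granule neuron progenitors of CD1-IGS mice at P6-P8, enriched on a Percoll gradient, and each replicate came from the cerebella of pooled litters. The comparison asks how gene expression responds when EZH2 is inhibited in neurons that have already left the cell cycle. Cultures received either DMSO, the solvent control, or GSK-126, an inhibitor of the histone methyltransferase EZH2, once at day 3 in vitro (DIV3), and the study's methods place the RNA collection at DIV5, while the labels give DIV3 and cerebellum as tissue. Both groups had been given cytosine arabinoside earlier to stop dividing cells. There were 3 RNA-seq libraries per group, numbered 1 to 3 in both. The dose used for these cultures was not given in the sources used here.

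GABAergic neurons make GABA from glutamate with the glutamate decarboxylases GAD67 (Gad1) and GAD65 (Gad2). The vesicular transporter VGAT (Slc32a1) loads GABA or glycine into synaptic vesicles. In the cerebellum the GABAergic cells are Purkinje cells, the interneurons of the molecular and granular layers, and some neurons of the deep nuclei. Granule neurons, in contrast, release glutamate. GlyT2 (Slc6a5) marks neurons that also release glycine, such as Golgi cells. Purkinje cells are known by calbindin (Calb1), parvalbumin (Pvalb, also in molecular layer interneurons), the G-protein modulator Pcp2, the carbonic anhydrase-related protein Car8, its partner the inositol trisphosphate receptor Itpr1, and the phosphatase inhibitor Ppp1r17.

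Counts on genes ranged from 7407189 to 13092763 per library, and levels are given as CPM, which is counts per M counts of a library after scaling by edgeR's TMM factors. A count of 0 was taken to allow up to 3 counts, which is 0.227 to 0.401 CPM by library and covers counting error only. The 14 granule neuron markers were above 10 CPM in all 6 libraries, and their summed level was 5164 to 8361 CPM with DMSO and 4130 to 6719 with GSK-126. Astroglial markers summed to 2534 to 7427 CPM with DMSO and mesenchymal markers to 7376 to 9895, so RNA of non-neuronal cells was present. Progenitor and cell cycle markers summed to 196.7 to 281.5 CPM with DMSO and 181.8 to 308.8 with GSK-126, so RNA of cell cycle genes was present too. Replicate 2 of both groups had the highest granule neuron sum and the lowest astroglial sum of its group. Libraries with the same replicate number deviated together, and a fit with that number as a block is given beside the fit without it. In bulk RNA, fewer cells of a type and less RNA per cell cannot be told apart.

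The genes of GABA synthesis and vesicular loading were lower with GSK-126. Gad1, Gad2 and Slc32a1 were each lower in all 3 replicate pairs, with no overlap between the groups, by 19.9%, 30.0% and 38.5% in the fit without the block. In that fit edgeR's quasi-likelihood test called no gene at an adjusted p under 0.05, which is 0.0% of the genes tested. With the replicate number as a block it called 851 genes lower (5.09%) and 561 higher (3.35%), and Gad1, Gad2 and Slc32a1 were among the lower ones. None of the other 6 tested markers was called in either direction. When 1 pair was left out of the blocked fit, Slc32a1 was called each time (adjusted p up to 0.0403), Gad1 without pair 2 (adjusted p = 0.0278) but not without pair 1 or 3 (0.0726 and 0.166), and Gad2 never (0.0604 to 0.127). Counted without adjustment, p was under 0.05 for 4 of the 9, all lower (Gad1, Gad2, Slc32a1 and Pcp2), and for 369 genes lower (2.21%) and 296 higher in the whole table. DESeq2 without the block called 21 genes, none of them a marker named here.

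The starts of the 3 called genes lie on chromosome 2 (GRCm38), and bases before each RefSeq start are shown because these genes fell together in the blocked fit. Gad1 spans chr2:70553072-70602014, Gad2 chr2:22622205-22693874 and Slc32a1 chr2:158610767-158615748, each on the plus strand. The stretches come from RefSeq (GRCm38.p6). They begin 250 bases before the RefSeq start and leave out bases that GENCODE places in an exon on the same strand. Capitals mark CG dinucleotides.
Gad1: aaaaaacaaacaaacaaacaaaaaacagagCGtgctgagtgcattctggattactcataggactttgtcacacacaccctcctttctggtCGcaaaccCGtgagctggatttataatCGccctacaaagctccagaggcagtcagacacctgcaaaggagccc
Gad2: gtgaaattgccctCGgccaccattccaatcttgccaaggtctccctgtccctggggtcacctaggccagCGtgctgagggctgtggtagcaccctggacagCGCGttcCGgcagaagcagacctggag
Slc32a1: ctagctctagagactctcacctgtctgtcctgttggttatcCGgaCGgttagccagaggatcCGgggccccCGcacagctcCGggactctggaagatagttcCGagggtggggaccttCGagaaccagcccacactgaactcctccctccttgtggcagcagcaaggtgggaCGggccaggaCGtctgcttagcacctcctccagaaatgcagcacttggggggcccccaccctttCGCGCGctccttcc
These stretches are chr2:70561879-70562041 for Gad1, chr2:22622077-22622204 for Gad2 and chr2:158610508-158610757 for Slc32a1. The Gad1 stretch lies inside the Gad1 span given above, because the RefSeq start used lies after the GENCODE start. The printed stretches hold 4 CG for Gad1, 5 for Gad2 and 12 for Slc32a1.

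In the whole window of 250 bases before the RefSeq start, Gad1 held 17 CG dinucleotides, Gad2 13 and Slc32a1 12, against a median of 6 over 32817 RefSeq windows of that length. Of all windows, 76.5%, 68.5% and 66.5% held fewer than these 3. Markers that were not called varied, with 11 and 7 in the windows of Slc6a5 and 4 and 23 in those of Pvalb. The windows of Pcp2, also not called, held 1, 1, 2 and 0. The letters TATAAA were found in 12.4% of the windows on either strand, and among these 3 only in that of Gad1. CANNTG, the E-box, was in 66.2% of windows and in all 3. Its form CACCTG was in 17.2%, and in the windows of Gad1 and Slc32a1. CAGCTG, another form of it, was in 13.0% and in none of the 3. Among markers not called, CANNTG was in both windows of Slc6a5, every window of Pcp2 and the Pvalb window with 23 CG. TATAAA and CACCTG were both also in the Pcp2 window that held 2 CG. There was no window for Calb1, Car8, Itpr1 or Ppp1r17. Such matches describe the letters only.

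Gad1, the enzyme that supplies most GABA of the cell body, had 121, 103 and 123.2 CPM in the DMSO libraries 1 to 3 and 101, 85.9 and 90.4 CPM with GSK-126. All 3 treated libraries were below all 3 controls, though the gap between GSK-126 replicate 1 and DMSO replicate 2 was narrow. Over 3 libraries each, the mean was 116 ± 11.2 (SD) with DMSO and 92.5 ± 7.88 with GSK-126. The log2 fold change was -0.32 (SE 0.126), with an adjusted p of 0.953 in edgeR's quasi-likelihood test without the block and 0.0163 with it (95% interval -0.49 to -0.15 with the block). The pairs differed by -0.26, -0.26 and -0.45 on the log2 scale.

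Gad2, the form of the enzyme found at synaptic terminals, was at 24.2, 20.98 and 23.3 CPM with DMSO and at 17.8, 13.3 and 16.8 with GSK-126. The groups were again apart, and the 3 pair differences were close to each other at -0.44, -0.66 and -0.46. The group means were 22.8 ± 1.67 and 16.0 ± 2.40 CPM (SD, 3 libraries each). The log2 fold change of -0.51 (SE 0.176) had an adjusted p of 0.953 in edgeR's test without the block and of 0.0266 with it. Per kb of exon union, Gad1 was 3.77 to 4.07 times as high as Gad2 in the DMSO libraries and 4.13 to 4.99 times in the GSK-126 libraries. With the length of the longest transcript the ratio was larger, at 7.81 to 8.44 with DMSO and 8.57 to 10.35 with GSK-126, so its size depends on the length used. The ratio was higher in every treated library than in every control. This order is the same for any length, because a length scales all libraries alike. The difference between the 2 genes was not tested.

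Slc32a1, which loads GABA into vesicles, had the largest fold change of the 3, a ranking that was not tested. Its levels were 54.8, 58.8 and 64.7 CPM with DMSO and 47.1, 32.4 and 29.8 CPM with GSK-126. The fall was shallow in pair 1 (-0.22 on the log2 scale) and larger in pairs 2 and 3 (-0.86 and -1.11). The mean was 59.4 ± 4.96 CPM with DMSO and 36.5 ± 9.36 with GSK-126 (SD of 3 libraries). On the log2 scale the fold change was -0.70 (SE 0.190). Its adjusted p in edgeR's quasi-likelihood test was 0.953 without the block and 0.0015 with it. Relative to Gad1 in the same library, Slc32a1 stood at 0.453, 0.573 and 0.525 with DMSO and at 0.466, 0.377 and 0.329 with GSK-126, ranges that overlap.

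Counting at the Slc32a1 locus has a limit, since 697 of its 2797 exon bases lie opposite exons of the antisense gene Gm14205 and the strand setting of the counting was not given in the sources used here. Without strand, reads of the shared bases cannot be told apart. Gm14205 was at 16.0, 18.8 and 19.9 CPM with DMSO and at 14.3, 8.72 and 9.22 with GSK-126. It was lower in the same pairs as Slc32a1, with a log2 fold change of -0.77 and an adjusted p of 0.0138 in edgeR's blocked fit.

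**Figure D1:**
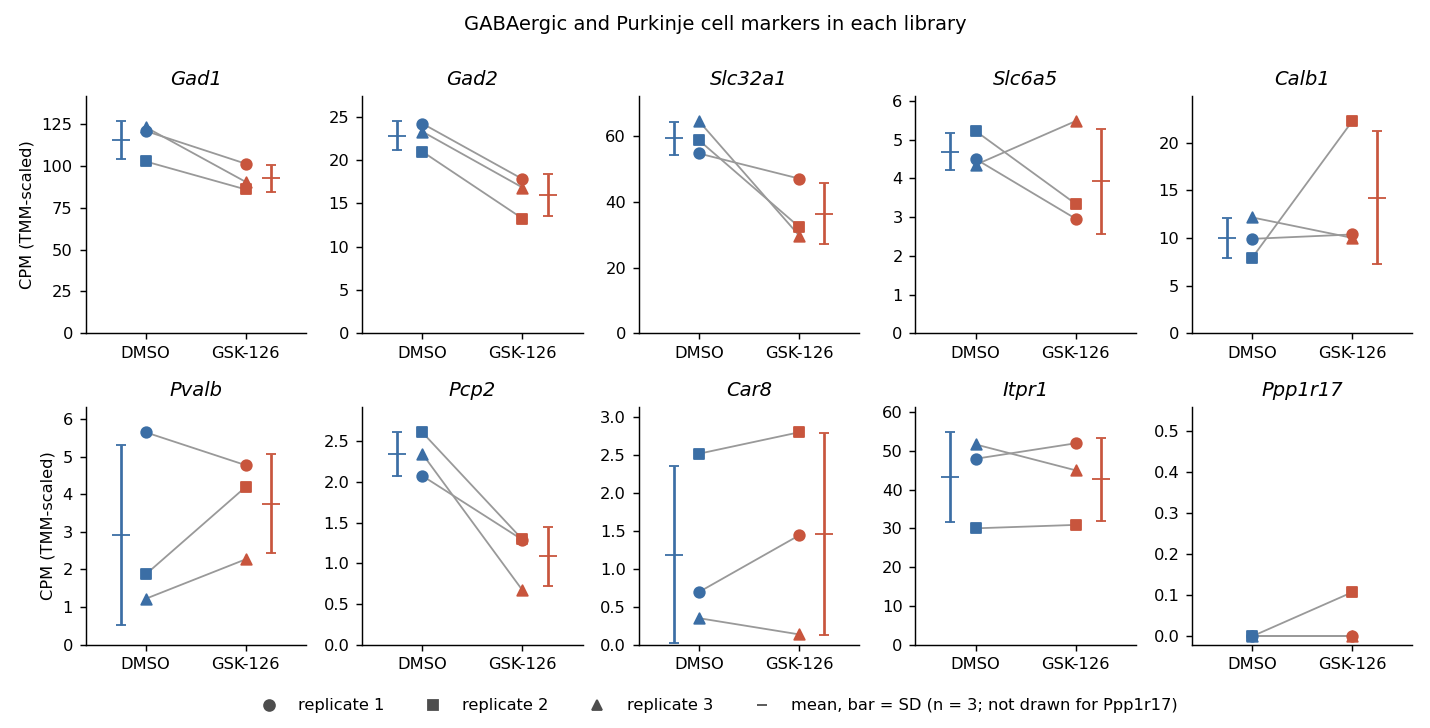
CPM (TMM-scaled, from 0) of each of the 10 markers in the 3 DMSO and 3 GSK-126 libraries, with lines joining libraries of the same replicate number and a bar for mean and SD. For Gad1, Gad2, Slc32a1 and Pcp2 all 3 GSK-126 points lie under all 3 DMSO points, while the others overlap.

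Slc6a5, the glycine transporter of glycinergic terminals on chr7:49910146-49963856, was low in every library. It had 4.50, 5.22 and 4.35 CPM with DMSO and 2.96, 3.34 and 5.48 with GSK-126. Pairs 1 and 2 were lower (-0.57 and -0.62 on the log2 scale) and pair 3 was higher (0.32), so the groups overlapped. Its log2 fold change was -0.27 (SE 0.322), with an adjusted p of 0.955 in edgeR's test and 0.629 with the block (95% interval -0.93 to 0.34).

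Among the Purkinje cell markers, Ppp1r17 was near the limit of detection, and Car8 was low and varied between libraries. Ppp1r17 (chr6:56017497-56032689) had 1 count in all, in GSK-126 replicate 2, and 0 counts in the other libraries. Car8 (chr4:8143362-8239041) had 6, 27 and 4 counts with DMSO and 19, 26 and 1 with GSK-126, or 0.134 to 2.80 CPM. The libraries of replicate 2 held most Car8 in both groups, and its log2 fold change of 0.32 (SE 0.935) had an adjusted p of 0.972 in edgeR's test.

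Pcp2 (chr8:3623371-3625545), which is expressed in Purkinje cells and retinal bipolar cells, was the lowest marker whose groups did not overlap. It had 18, 28 and 27 counts with DMSO and 17, 12 and 5 counts with GSK-126, which is 2.08, 2.61 and 2.35 CPM against 1.29, 1.29 and 0.668. Every treated library was below every control, but the exact 95% Poisson intervals of some libraries overlapped (for example 1.23 to 3.28 CPM for DMSO replicate 1 and 0.751 to 2.06 for GSK-126 replicate 1). The log2 fold change was -1.08 (SE 0.403), with an adjusted p of 0.953 in edgeR's quasi-likelihood test and 0.163 with the block, so Pcp2 was not called. On the opposite strand, Pet100 shares 941 of the 1828 exon bases of Pcp2. Pet100 was at 4.85 to 8.87 CPM and was higher with GSK-126 in all 3 pairs, by 0.31 on the log2 scale in the blocked fit (adjusted p = 0.462).

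Across the 10 markers, groups without overlap were seen for Gad1, Gad2, Slc32a1 and Pcp2, each lower with GSK-126. The same pattern held for 4.72% of all genes tested. A lower value in all 3 pairs, seen for the same 4 genes, held for 22.8% of genes tested. For each of the 4, an exact 2-sided permutation test of the CPM gave p = 0.1, the smallest that 3 libraries against 3 allow.

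Calb1 (chr4:15881264-15908064), the calcium buffer of Purkinje cells, was at 9.92, 7.93 and 12.2 CPM with DMSO and at 10.4, 22.3 and 10.02 CPM with GSK-126. GSK-126 replicate 2 alone was high, and the other 2 treated libraries lay within the control range. The log2 fold change was 0.51 (SE 0.349) with an adjusted p of 0.953 in edgeR's test and 0.317 with the block. Without pair 2 it was -0.10 in the blocked fit.

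Pvalb (chr15:78191114-78206400), the parvalbumin gene, was at 5.65, 1.87 and 1.22 CPM with DMSO and at 4.78, 4.20 and 2.27 with GSK-126. DMSO replicate 1 was the highest of the 6, and the groups overlapped. The log2 fold change of 0.40 (SE 0.589) had an adjusted p of 0.961 in edgeR's test. It rested on single libraries, being 1.31 without DMSO replicate 1 and 0.03 without DMSO replicate 3.

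Itpr1 (chr6:108213096-108551109), the calcium release channel of the endoplasmic reticulum, was the best measured of the Purkinje cell markers. It had 48.0, 30.0 and 51.7 CPM with DMSO and 52.0, 30.9 and 45.0 with GSK-126. Levels followed the replicate number, with replicate 2 lowest in both groups. The log2 fold change was -0.02 (SE 0.256), and with the block it was -0.01 with a 95% interval of -0.24 to 0.21 and an adjusted p of 0.961 in edgeR's test. In the same fit the 95% interval was -0.995 to -0.438 for Slc32a1. That of Gad1, -0.49 to -0.15, overlapped the interval of Itpr1. Differences between these markers were not tested.

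**Figure D2:**
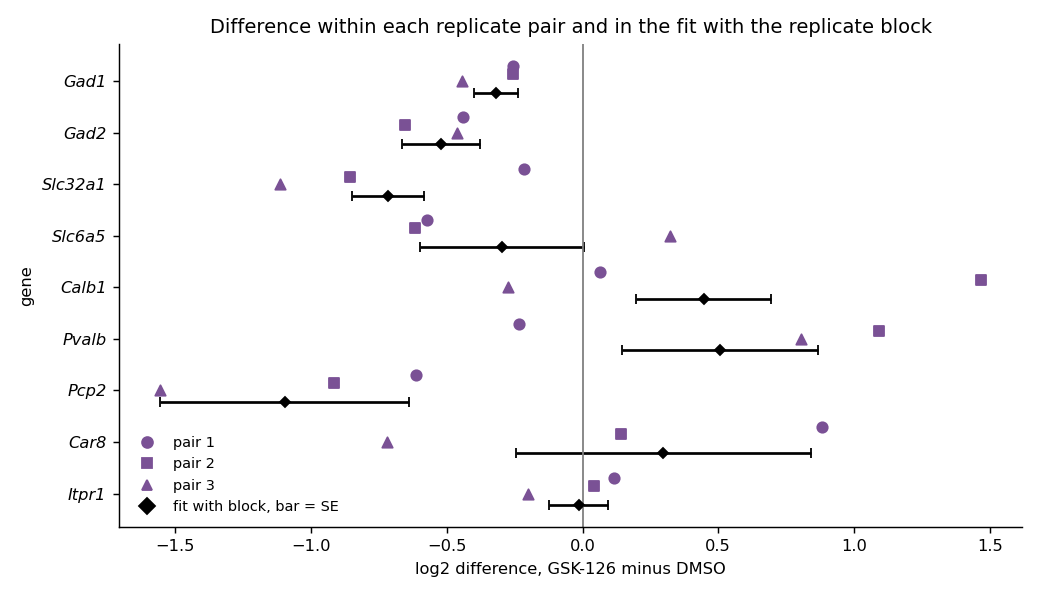
Difference of log2 CPM between GSK-126 and DMSO in each replicate pair (purple symbols) and the log2 fold change of the edgeR fit with the replicate block (black diamonds, bar = SE) for the 9 markers tested. The 3 pairs of Gad1, Gad2, Slc32a1 and Pcp2 lie left of 0, those of Itpr1 lie from -0.20 to 0.12, and Calb1 ranges from -0.28 to 1.47.

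Levels can be ordered between genes only per kb of exon. In the DMSO libraries the means were 21.3 for Slc32a1, 15.1 for Gad1, 3.89 for Gad2, 2.80 for Pvalb, 2.36 for Itpr1, 2.06 for Calb1, 1.28 for Pcp2, 0.651 for Slc6a5 and 0.308 for Car8, in CPM per kb of exon union. Slc32a1 and Gad1 were apart in every DMSO library, but with the length of the longest transcript Gad1 came first at 32.1 and Itpr1, at 4.38, passed Gad2 at 3.98, so these orders depend on the length used. By exon union, the DMSO values of Pvalb overlapped those of Gad2, Itpr1, Calb1 and Pcp2, those of Itpr1 and Calb1 overlapped, and so did those of Slc6a5 and Car8. These neighbours cannot be ordered.

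**Figure D3:**
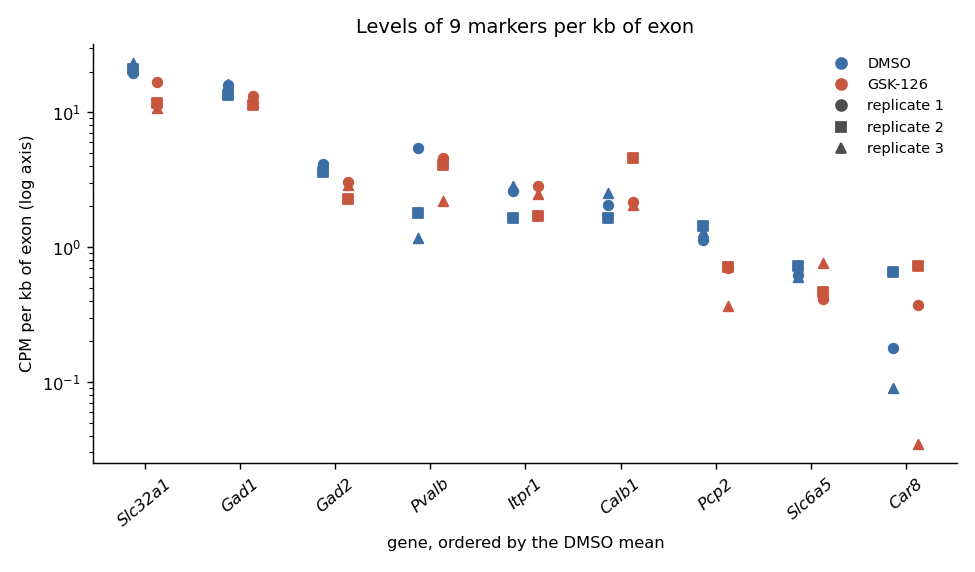
CPM per kb of exon union on a log axis for the 9 markers with a mean above 0 in DMSO, 1 point per library (blue DMSO, red GSK-126). Slc32a1 and Gad1 stand above all others in each library, and Car8 spreads from 0.0347 to 0.727.

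The other genes of inhibitory transmission were next in question. Of the 13 genes for GABA and glycine handling (transporters, breakdown enzymes, receptor anchors and glycine receptors), 10 were tested and all 10 had a negative fold change, with a median log2 value of -0.31 against -0.01 for all genes tested. The blocked fit called 4 lower, Slc6a13 and Gphn among them, and 0 higher. Of all genes tested, that fit called 5.09% lower. Slc6a13 was close to the threshold (adjusted p = 0.047 in edgeR's blocked fit). It had 47.6, 4.38 and 8.95 CPM in DMSO libraries 1 to 3 and 25.7, 2.585 and 8.415 with GSK-126, so its groups overlapped. Gphn, the scaffold gephyrin that anchors glycine and GABA-A receptors, fell by 0.36 on the log2 scale (adjusted p = 0.00886 in edgeR's blocked fit). Granule neurons receive GABA themselves, so receptor anchors are not particular to inhibitory cells.

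Of 19 other genes used as markers of GABAergic interneurons, 11 were tested. Among these, 5 had a negative and 6 a positive fold change, and the blocked fit called 0. Their median log2 fold change was 0.0003. Pax2, the transcription factor of immature cerebellar interneurons, was at 11.8 to 16.3 CPM over all libraries, and Kit, the receptor of molecular layer interneurons, at 61.9 to 98.2 CPM. The smallest p of the list was that of Kit, with a log2 fold change of -0.20 (adjusted p = 0.176 in edgeR's blocked fit). Lgi2 and Nxph1 followed, with 0.19 (adjusted p = 0.532) and -0.34 (adjusted p = 0.604) in the same fit. The listed genes summed to 166 to 192 CPM with DMSO and 150 to 184 CPM with GSK-126, overlapping ranges, and within pairs 1 to 3 the sum differed by -0.06, -0.14 and -0.11 on the log2 scale. The 4 GABAergic markers summed to 188 to 216 CPM with DMSO and 135 to 169 with GSK-126, with pair differences of -0.27, -0.48 and -0.60. Whether the 2 lists differ was not tested.

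Of 17 other genes used to recognise Purkinje cells, 14 were tested and 1 was called, Slc1a6, which was higher. The blocked fit called 3.35% of all genes tested higher. Slc1a6, the glutamate transporter EAAT4, was at 14.2, 21.7 and 22.9 CPM with DMSO and at 31.2, 35.0 and 29.8 CPM with GSK-126. All 3 treated libraries were above all controls, with a log2 fold change of 0.73 and an adjusted p of 0.00282 in edgeR's blocked fit. Rora, a nuclear receptor, and Plcb4, a phospholipase C, had log2 fold changes of -0.21 each (adjusted p = 0.102 and 0.137 in that edgeR fit). Skor2, a factor confined to Purkinje cells in the cerebellum, was at 0 in all libraries. With Ppp1r17 at 1 count, both of these markers were thus at or near 0, while Calb1 and Pcp2 had counts in every library. The name Purkinje cell marker says here what a gene is used for, not which cells were measured. Other genes of both lists were expressed, and 10 of the 17 Purkinje cell genes and 5 of the 19 interneuron genes (Pax2, Tfap2a, Tfap2b, Kit and Lgi2) were above 10 CPM in all libraries.

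Relatives of the markers were read from a list of 9, of which 8 were tested. Car10, a carbonic anhydrase-related protein like Car8, fell from 159 ± 38.7 to 122 ± 32.0 CPM (SD, 3 libraries each), which is -0.39 on the log2 scale, with an adjusted p of 0.00224 in edgeR's blocked fit. Ppp1r1b, the phosphatase inhibitor DARPP-32, fell from 6.47 ± 1.48 to 2.78 ± 1.26 CPM (SD, 3 libraries each), which is -1.23 on the log2 scale (adjusted p = 0.0154 in the same edgeR fit). No relative was called higher.

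Most markers of other neurons were also lower with GSK-126. In the blocked fit 8 of 14 granule neuron markers and 8 of 10 pan-neuronal markers were called lower, where 5.09% of all genes tested were. Their median log2 fold changes were -0.33 and -0.38 in the fit without the block. In that fit 12 of the 14 and 9 of the 10 were negative. With the block, the granule neuron markers ran from -1.95 (Slc17a7) to 0.14 (Slc17a6). One pan-neuronal gene, Tubb3, was called higher. The summed granule neuron markers differed by -0.32, -0.32 and -0.34 (log2) in pairs 1 to 3, beside the GABAergic sums given above. Of the 8 astroglial, 8 oligodendrocyte, 6 microglial and 7 mesenchymal markers tested, the blocked fit called 5, all higher (S100b, Mbp, C1qa, Col1a2 and Acta2), where 3.35% of all genes tested were called higher. Microglial markers summed to 149 to 320 CPM with DMSO and 205 to 373 with GSK-126. The part of these shifts in the values of Gad1, Gad2 and Slc32a1 was not tested.

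**Figure D4:**
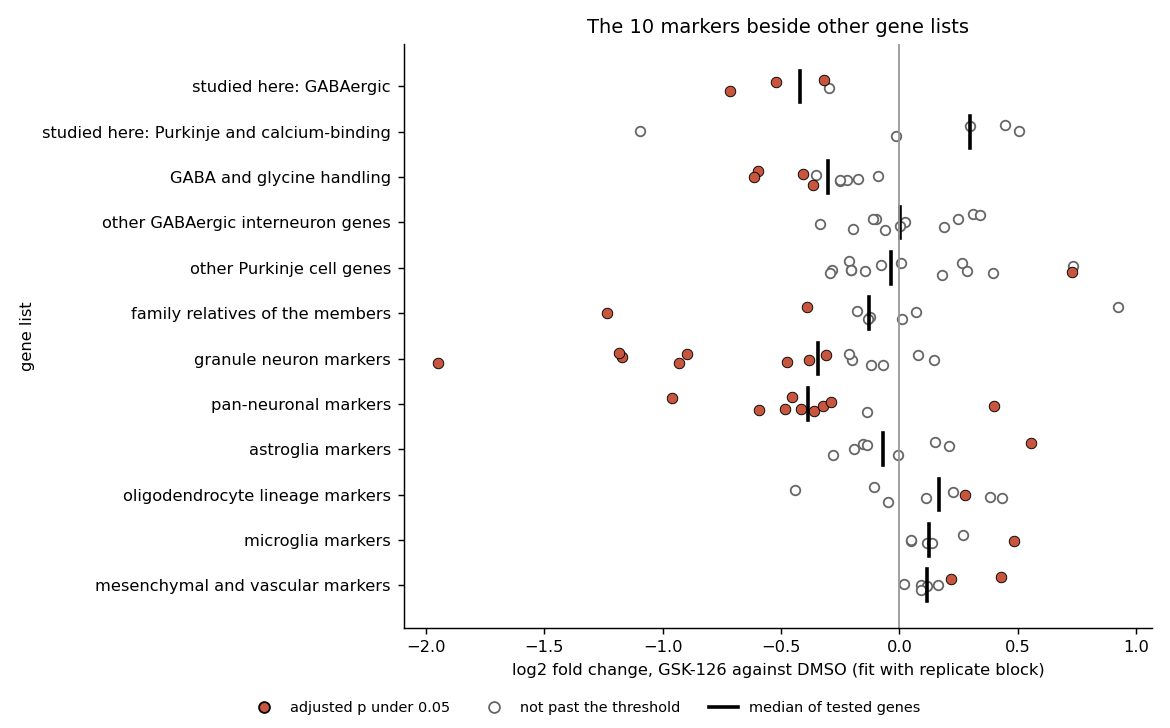
Log2 fold change of each tested gene in the edgeR fit with the replicate block, by gene list, with red points for an adjusted p under 0.05 and a bar at the list's median. The GABAergic list (median -0.42) sits beside the pan-neuronal (-0.39) and granule neuron (-0.34) lists, and the other interneuron genes centre on 0.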

How the data were processed

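Poly(A) RNA of CGN cultures was sequenced in 6 libraries. According to the labels and the methods, the authors trimmed reads with Trimmomatic 0.38, aligned them to mm10 with STAR 2.7.2b and counted reads on exons with HTSeq. They deposited raw counts per gene, with no normalization. The methods name a Gencode annotation of GRCm38.p4 without its release, and the strand setting was not given in the sources used here. The 55341 gene symbols equal those of GENCODE M21, whose header names GRCm38 without a patch and which gave coordinates and exons here.

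The lines that name no gene held 58.7% to 60.7% of the listed reads and were left out. Counts were fitted in R 4.3.3 with edgeR 4.0.16 (TMM, filterByExpr, quasi-likelihood test, no block), with Benjamini-Hochberg adjustment over all 16729 tested genes and calls at an adjusted p under 0.05. The SE is the fold change divided by the square root of its F statistic. DESeq2 1.42.0, other scalings, filters, libraries or pairs left out, and a replicate block were alternatives. Replicate numbers come from the labels. After each group mean was subtracted from log2 CPM, same-numbered libraries correlated across genes at 0.56, 0.63 and 0.49 and differently numbered ones at 0.0064 or less. The deviations within a group sum to 0, so the low values of differently numbered libraries follow in part from this subtraction. From the same-numbered values, the numbers were taken to pair the libraries. The fits were tested on simulated data. The 10 markers and the gene lists were chosen with earlier results of these data known, so no count over them is independent support. Further genes were named by the smallest p in the blocked fit, 3 from each of the lists for Purkinje cells, interneurons, and GABA and glycine handling and 2 from the list of relatives, together with called genes and defining markers. Some genes that this rule names are not reported here. The nearest profiles were ranked by the root mean square difference of centred log2 CPM. Each culture replicate came from pooled litters.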

Additional observations from a re-analysis of the deposited data

How the results depend on the processing

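In the fit without the block 0 genes were called by edgeR, with 369 lower and 296 higher at an unadjusted p under 0.05, and 0 of the 10 markers. DESeq2 called 21 genes (19 higher and 2 lower) and edgeR with no filter 10 (9 higher and 1 lower), none of them among the markers. With the replicate block edgeR called 1412 genes, DESeq2 951, and edgeR scaled by total counts 1421. Total counts changed the split from 851 lower and 561 higher to 707 lower and 714 higher. Markers called with the block numbered 3 (Gad1, Gad2 and Slc32a1), 3 again with total counts, and 2 by DESeq2, where Gad2 had an adjusted p of 0.136. Without pair 1 there were 1088 genes and 1 marker (Slc32a1), without pair 2 833 genes and 2 markers (Gad1 and Slc32a1), and without pair 3 1277 genes and 2 markers (Slc32a1, and Calb1 higher at 0.80). Slc32a1 was called in each of these blocked fits at the threshold of 0.05.

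Leaving out single libraries without the block gave 0 calls each, with log2 fold changes of -0.40 to -0.25 for Gad1, -0.59 to -0.38 for Gad2 and -0.92 to -0.58 for Slc32a1. Those of Car8 ran from -0.45 to 1.53, the value being -0.13 without DMSO replicate 3 and the lowest without GSK-126 replicate 2, and Car8 was at -0.084 in the blocked fit without pair 1. Itpr1 ran from -0.22 to 0.18, the value being 0.08 without DMSO replicate 1, 0.13 when DMSO replicate 3 was dropped and the highest when GSK-126 replicate 2 was. It was at 0.015 with upper-quartile factors, 0.0085 with total counts, 0.018 with the block and total counts, and 0.083 with the block without pair 3. Calb1 was at -0.10 with the block without pair 2. The cause of these changes was not tested. A filter of at least 10 counts in every library dropped Pcp2 and Car8. The block changed the call of no marker other than Gad1, Gad2 and Slc32a1. Depth limits Ppp1r17, Car8 and Pcp2, which had at most 28 counts in a library.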

Other observations

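Genes whose levels over the 6 libraries were most like those of a marker were ranked among 13235 tested genes with a mean of at least 5 CPM, by the root mean square (RMS) difference of log2 CPM after each gene was centred on its own mean. For Gad1 these were Calcoco1 (RMS difference 0.0536) and Nos1ap (0.0651). For Gad2 they were Htr2c (0.0838) and Dnah6 (0.113). Slc32a1 was closest to its antisense neighbour Gm14205 (0.0766), with which it shares exon bases, and then to Gm2065 (0.101). Calb1 had Tpbgl (0.107) and Vstm2l (0.158), and Itpr1 had Lbx1 (0.0524) and Dcaf4 (0.0543). Among the markers that passed this level Gad1 and Gad2 were the closest, at 0.132. Many other genes were nearer, since Gad2 had rank 134 for Gad1 and Gad1 had rank 12 for Gad2.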
